A study of Mus musculus with 36 samples.

Results

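Embryoid bodies at day 8 of differentiation were compared between LncCPR-KO cells and control cells, with 3 libraries in each group, 6 of the 36 libraries of the study. LncCPR is a long noncoding RNA. Both groups came from AB2.2, a mouse embryonic stem cell line, and both had been kept with the cytokine LIF, taken off it and grown as hanging drops, so that the presence of LncCPR is the difference the labels give. The LncCPR-KO group carries a deletion made with Cas9 and a pair of guide RNAs placed on either side of the gene, in cells that were sorted singly, genotyped and expanded. The number of such lines behind the 3 libraries is not given, and nothing in the labels says that replicates came from separate lines or cultures, so the p-values measure only the spread between these libraries. The libraries were taken by their labels. Of 37561 gene entries, 12695 averaged at least 1 FPKM in the 6 libraries and were tested.

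Embryoid bodies are aggregates in which stem cells leave pluripotency, pass through a stage like the primitive streak and form derivatives of all germ layers. Heart muscle comes from mesoderm cells that pass through the streak, briefly turn on the transcription factor Mesp1, and then activate a network of heart transcription factors that includes Gata4, Nkx2-5, Tbx5, Hand2 and Mef2c. These factors switch on the genes of the sarcomere, the repeating unit of myosin thick filaments and actin thin filaments that contracts, and of the channels and pumps that cycle calcium. In mouse embryoid bodies beating areas usually appear at about the stage studied here. Whole embryoid bodies were lysed, so in every result below fewer cells of a type and less RNA per cell cannot be told apart.

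FPKM, the fragments of a gene scaled by transcript length and by the fragments of the library, carries no read count, so the depth is unknown and no counting interval can be given. Summed over genes, the FPKM of a library came to between 331541 and 403675 in LncCPR-KO and to between 299260 and 332943 in control, and 12443 to 12807 genes lay above 1 FPKM in a library. In LncCPR-KO 1, 69239 FPKM of the sum was mt-Rnr2, a mitochondrial ribosomal RNA that was listed at 0 in the other 5 libraries, so an exact 0 in this table need not mean an absent transcript. Correlations across genes, which are not independent replicates, were 0.966 to 0.978 within a group and 0.946 to 0.965 between groups. Fold changes are log2 of LncCPR-KO over control on FPKM + 1, which understates the change of weakly expressed genes, and SE is their standard error. A gene was called where limma's two-sided test gave an adjusted p under 0.05 (Benjamini-Hochberg over the 12695 genes). An exact permutation test of 3 against 3 libraries cannot go below 0.1, so each call rests on limma, which pools the spread over genes. A number in brackets after a gene is its log2 fold change, ± gives the SD over 3 libraries, and fold changes of means are taken on FPKM without the added 1.

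None of the gene names contains LncCPR, so the deleted gene itself could not be read. The transcript 4930500J02Rik (ENSMUSG00000086454.1, chromosome 2), whose function is not known, was listed at 0, 0 and 0 FPKM in LncCPR-KO embryoid bodies, against 10.5, 8.93 and 8.6 FPKM in control embryoid bodies (log2 fold change -3.36, SE 0.17, adjusted p = 3.16e-05). The 2 groups did not overlap. Whether this transcript is related to LncCPR was not tested.

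At day 8, 417 genes (3.28% of those tested) were called, 163 higher in LncCPR-KO (1.28%) and 254 lower (2.0%). Counts of members called at day 8 in every list below are to be read beside these shares of higher and lower genes. In all 417 the 3 libraries of each group did not overlap, and 66 of the higher and 159 of the lower genes differed by more than 2-fold on the FPKM + 1 scale. Without overlap there were 2878 of the 12695 genes (22.7%), so lack of overlap alone is common here. The median log2 fold change of all genes was 0.09, and it was -0.02 once the libraries were rescaled to a common median ratio, a setting under which 227 genes were higher and 513 lower. The counts depended on single libraries: 64 genes were higher and 156 lower without LncCPR-KO 1, 68 and 200 without LncCPR-KO 2, and 406 and 259 without LncCPR-KO 3. They came to 81 higher and 145 lower without control 1, 51 and 139 without control 2, and 71 and 176 without control 3. Of 112 called genes chosen by rule, 64 kept their call whichever library was left out. For the other 48 the libraries and the adjusted p without them are given where the gene is described. With no filter on low values 67 of the 112 lost their call, a limit not repeated with each gene. Pou5f1, T, Hand1, Dnmt3b, Psmb8 and Fst were among them (adjusted p = 0.0517 to 0.103 by limma). Over the alternatives tried the highest adjusted p of any of the 112 was 0.254.

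Of the gene lists used, that of the contractile apparatus of heart muscle held the most lower genes. Of 36 tested members of a list of 41 cardiac sarcomere genes, 29 fell in LncCPR-KO, 1 rose and 6 did not pass, against 2.0% lower and 1.28% higher among all genes. Their median log2 fold change was -1.90, and 0.09 over all genes. Leaving out any 1 library kept 26 to 29 members lower. The other 5 of the 41 genes stayed under the filter, among them Myom2 and Tcap. The list was drawn up with results of the same samples known, as were all lists used here.

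Myosin is the motor of the sarcomere. Myh6, the alpha heavy chain of cardiac myosin, had 13.9, 9.67 and 11.4 FPKM in LncCPR-KO embryoid bodies, against 89.6, 145 and 131 FPKM in control embryoid bodies (log2 fold change -3.26, SE 0.20, adjusted p = 3.88e-05). Myh7, the beta heavy chain and the main form in the mouse embryonic ventricle, had 31.3, 33 and 33 FPKM in LncCPR-KO embryoid bodies, against 127, 139 and 131 FPKM in control embryoid bodies (log2 fold change -2.0, SE 0.12, adjusted p = 3.88e-05). The highest LncCPR-KO library lay below the lowest control library by a wide margin in both genes, and Myh7 varied little within a group. The ratio of the means, control over LncCPR-KO, was 10.4-fold for Myh6 and 4.08-fold for Myh7. These neighbouring genes are close copies, and how reads that match both were shared out is not given in the sources used here.

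The light chains of myosin followed. Myl2, the regulatory light chain of ventricular muscle, had 2.14, 1.69 and 0.786 FPKM in LncCPR-KO embryoid bodies, against 25.4, 31.5 and 23.3 FPKM in control embryoid bodies (log2 fold change -3.48, SE 0.22, adjusted p = 3.88e-05). Myl3, the essential light chain of ventricular muscle, had 13.7, 16.9 and 11.9 FPKM in LncCPR-KO embryoid bodies, against 79.9, 95.5 and 77.2 FPKM in control embryoid bodies (log2 fold change -2.50, SE 0.16, adjusted p = 3.88e-05). Myl7, the regulatory light chain of atrial muscle, which all heart muscle cells of the early tube make, had 26.1, 50.1 and 39 FPKM in LncCPR-KO embryoid bodies, against 189, 223 and 176 FPKM in control embryoid bodies (log2 fold change -2.36, SE 0.22, adjusted p = 0.000261). All 3 were lower in each LncCPR-KO library than in any control library, and Myl2 stood near 1 FPKM in LncCPR-KO 3.

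Actc1, Tnnt2 and Tnni1, genes of the thin filament, fell as well, while Acta1 and Tpm1, given below, did not. Actc1, the cardiac alpha actin, had 46, 66.3 and 44.9 FPKM in LncCPR-KO embryoid bodies, against 289, 337 and 285 FPKM in control embryoid bodies (log2 fold change -2.53, SE 0.17, adjusted p = 4.52e-05). Tnnt2, cardiac troponin T, which anchors the troponin complex on tropomyosin, had 23.9, 22.1 and 25.6 FPKM in LncCPR-KO embryoid bodies, against 137, 186 and 182 FPKM in control embryoid bodies (log2 fold change -2.75, SE 0.15, adjusted p = 3.88e-05). Tnni1, the slow skeletal troponin I that the embryonic heart uses, had 6.91, 13.2 and 10.6 FPKM in LncCPR-KO embryoid bodies, against 81.5, 98.9 and 70.8 FPKM in control embryoid bodies (log2 fold change -2.94, SE 0.21, adjusted p = 6.79e-05). The groups did not overlap in any of the 3, and the control mean was 5.8-fold, 7.04-fold and 8.2-fold the LncCPR-KO mean. Tnnt2 and Tnni1 lie on chromosome 1, where the median log2 fold change lay 0.29 below that of the other genes (described with the chromosomes). How much of the change of single genes goes with this was not tested.

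**Figure D1:**
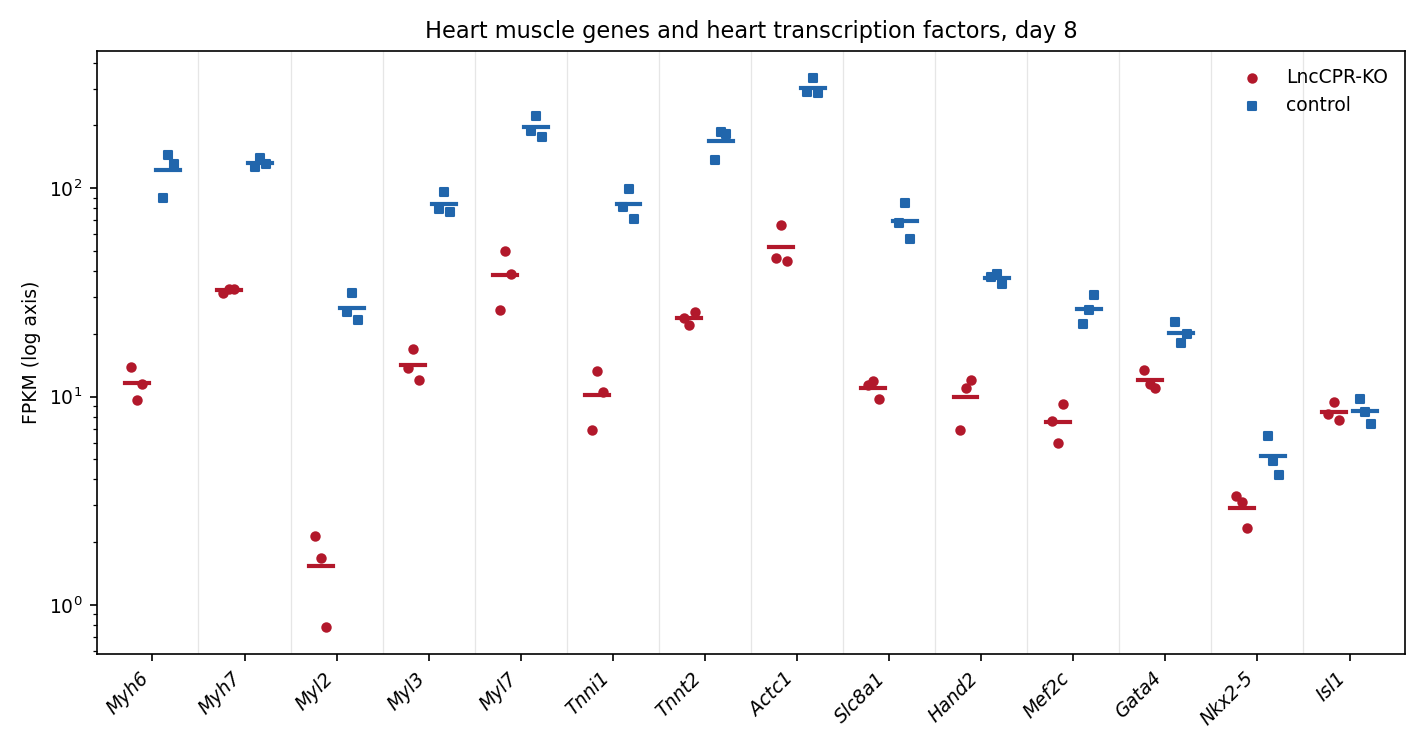
FPKM on a log axis of 14 genes in each of the 3 LncCPR-KO libraries (red circles) and 3 control libraries (blue squares) at day 8, with bars at the group means. The LncCPR-KO points of the 9 sarcomere and calcium genes from Myh6 to Slc8a1 lie well below the control points, Hand2, Mef2c and Gata4 lie apart by less, and the points of Isl1 overlap.

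Promoters of 4 of these genes are shown because the genes fell together and differ in what lies before their start sites. Of the 30 called sarcomere genes 29 were considered, 25 of these matched the promoter table, and the 4 of largest change were taken. Myl2 was passed over because no GENCODE transcript start lay within 50 bases of its RefSeq start. Each run covers the 250 bases before the RefSeq start in GRCm38.p6, 5′ to 3′ on the strand of the gene: Myh6 at chr14:54966608-54966857, minus strand, Tnni1 at chr1:135799171-135799420, plus strand, Tnnt2 at chr1:135836084-135836333, plus strand and Actc1 at chr2:114052876-114053125, minus strand. Capitals mark matches, on either strand, to a GATA site (AGATAA), an E-box (CANNTG), a TATA box (TATAAA), a CArG box, which serum response factor binds, or a MEF2 site.
Myh6: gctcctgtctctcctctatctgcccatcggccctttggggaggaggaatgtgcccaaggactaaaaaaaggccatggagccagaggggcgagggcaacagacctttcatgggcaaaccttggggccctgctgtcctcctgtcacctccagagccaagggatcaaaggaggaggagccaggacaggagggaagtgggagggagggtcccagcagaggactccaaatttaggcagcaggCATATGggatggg
Tnni1: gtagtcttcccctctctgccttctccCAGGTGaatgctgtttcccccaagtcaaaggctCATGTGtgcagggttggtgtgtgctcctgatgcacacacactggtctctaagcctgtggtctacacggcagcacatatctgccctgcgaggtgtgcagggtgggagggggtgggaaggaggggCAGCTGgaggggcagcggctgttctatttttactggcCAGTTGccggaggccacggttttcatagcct
Tnnt2: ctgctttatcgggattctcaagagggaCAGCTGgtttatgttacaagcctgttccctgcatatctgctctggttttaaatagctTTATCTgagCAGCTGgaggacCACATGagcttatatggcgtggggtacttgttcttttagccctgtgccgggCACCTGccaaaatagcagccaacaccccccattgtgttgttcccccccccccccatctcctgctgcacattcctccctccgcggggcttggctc
Actc1: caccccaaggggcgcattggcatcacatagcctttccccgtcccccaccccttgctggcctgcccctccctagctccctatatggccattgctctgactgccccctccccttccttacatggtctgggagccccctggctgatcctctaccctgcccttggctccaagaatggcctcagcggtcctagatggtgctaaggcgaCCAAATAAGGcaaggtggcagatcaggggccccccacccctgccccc
Tnnt2 was the only one of the 4 with the GATA letters, and Tnni1 and Tnnt2 each held 4 E-boxes. Actc1 held 1 CArG box, beginning 47 bases before the start, and none of the other motifs. Among 32536 different promoters of the same length, 9.97% held the GATA letters, 66.2% an E-box, 12.3% a TATA box, 1.48% a CArG box and 2.89% a MEF2 site. These matches describe letters in a window and say nothing about whether a factor was bound.

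The remaining sarcomere genes that fell cover the Z-disc, the M-band and the assembly of the filaments, and they are named outside the rule, after their values were seen. Of the Z-disc, Actn2 (-2.45), the cross-linker alpha-actinin, Ldb3 (-1.93), Nebl (-2.03) and Csrp3 (-2.42) fell. Mybpc3 (-2.43), myosin binding protein C, and Myom1 (-2.12), myomesin of the M-band, fell too. So did Unc45b (-1.72), a chaperone that folds myosin, and Smyd1 (-1.87), a methyltransferase needed for myofibril assembly. All of them fell by 1.72 or more on the log2 scale. Acta1, the skeletal alpha actin that the fetal heart also makes, was the 1 member that rose, with 37.5, 40.7 and 27.8 FPKM in LncCPR-KO and 18.9, 20.1 and 15.1 FPKM in control (log2 fold change 0.92, adjusted p = 0.0188). Its call ended without LncCPR-KO 1, LncCPR-KO 2, control 1 or control 3 (adjusted p = 0.0588 to 0.080). Des, the muscle intermediate filament desmin on chromosome 1, fell less than the others (12.7, 15.5 and 12.4 FPKM in LncCPR-KO and 26.1, 24.5 and 20.4 FPKM in control, log2 fold change -0.76, adjusted p = 0.0226), and lost its call without LncCPR-KO 1, control 1 or control 2 (adjusted p = 0.0929 to 0.121). Tpm1, the tropomyosin that many cell types make, had 1247, 1413 and 990.3 FPKM in LncCPR-KO and 1023, 970.3 and 776 FPKM in control and did not pass (log2 fold change 0.39, adjusted p = 0.393). Ttn, the giant spring protein titin, was listed at 0 in LncCPR-KO 3, control 2 and control 3, at 9.81 and 14.2 FPKM in the other LncCPR-KO libraries and at 75.5 FPKM in control 1, so its level cannot be read from this table. The FPKM of the tested members summed to between 1432 and 1956 in LncCPR-KO and between 2572 and 3096 in control, with Tpm1 the largest part.

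Genes that handle calcium and carry ion currents fell in part. Of 23 tested members of a list of 32, 11 fell (47.8%, against 2.0% of all genes), 1 rose (4.35%, against 1.28%) and 11 did not pass. The median log2 fold change was -0.80. Slc8a1, the sodium-calcium exchanger that removes calcium from the cell, had 11.4, 11.9 and 9.75 FPKM in LncCPR-KO embryoid bodies, against 67.7, 84.8 and 57 FPKM in control embryoid bodies (log2 fold change -2.54, SE 0.16, adjusted p = 3.88e-05). Ryr2, the calcium release channel of the sarcoplasmic reticulum, had 1.2, 0.945 and 1.63 FPKM in LncCPR-KO embryoid bodies, against 6.42, 7.67 and 8.11 FPKM in control embryoid bodies (log2 fold change -1.90, SE 0.18, adjusted p = 0.000314). Both were lower in each LncCPR-KO library than in any control library. Popdc2 and Bves, membrane proteins of the popeye family that bind cyclic AMP, and Srl, sarcalumenin of the sarcoplasmic reticulum, also fell (log2 fold changes -2.24, -1.71 and -1.36, adjusted p = 0.000314, 0.00364 and 0.00454). Atp2a2, the calcium pump of the reticulum, which non-muscle cells also make, had 42.3 ± 3.83 FPKM in LncCPR-KO and 55.3 ± 3.15 FPKM in control and did not pass (log2 fold change -0.38, adjusted p = 0.16).

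The 1 member that rose was Kcnj3, which encodes a subunit of the inward rectifier potassium channel opened by G proteins, with 7.66, 10.4 and 8.04 FPKM in LncCPR-KO embryoid bodies, against 2.38, 1.74 and 1.6 FPKM in control embryoid bodies (log2 fold change 1.74, SE 0.18, adjusted p = 0.000577). The lowest LncCPR-KO library was above the highest control library. Kcnj5, whose product joins that of Kcnj3 in the atrial channel, went the other way, with 1.07, 1.04 and 1.35 FPKM in LncCPR-KO and 3.17, 4.09 and 3.59 FPKM in control (log2 fold change -1.10, adjusted p = 0.00844), a call that ended without control 2 (adjusted p = 0.0553). The number of lower members in this list was 8 without control 2 and up to 13 without LncCPR-KO 3, and it was 4 where genes under a mean of 5 FPKM were left out, a setting that tests fewer genes.

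Heart transcription factors fell in part. Of 30 members, all tested, 12 fell, 0 rose and 18 did not pass, with a median log2 fold change of -0.49. Hand2, a basic helix-loop-helix factor needed for the right ventricle, had 6.93, 11 and 12 FPKM in LncCPR-KO embryoid bodies, against 37.3, 38.5 and 34.8 FPKM in control embryoid bodies (log2 fold change -1.82, SE 0.19, adjusted p = 0.000543). Hand1, its relative of the left ventricle and the extraembryonic mesoderm, had 14.2, 6.39 and 13.1 FPKM in LncCPR-KO embryoid bodies, against 50.5, 34.7 and 35.4 FPKM in control embryoid bodies (log2 fold change -1.80, SE 0.26, adjusted p = 0.00501). Mef2c, a MADS-box factor that activates sarcomere genes, had 7.61, 5.99 and 9.16 FPKM in LncCPR-KO embryoid bodies, against 22.3, 26 and 30.6 FPKM in control embryoid bodies (log2 fold change -1.67, SE 0.18, adjusted p = 0.000623). The groups lay apart in all 3, each control library being above every LncCPR-KO library.

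The T-box factors Tbx20 and Tbx2, of which Tbx2 keeps parts of the heart in a non-chamber state, both fell. Tbx20 had 8.25, 9.8 and 10.4 FPKM in LncCPR-KO and 29, 24.2 and 21.2 FPKM in control (log2 fold change -1.29, adjusted p = 0.00157), and Tbx2 had 0.543, 0.984 and 0.845 FPKM in LncCPR-KO and 3.94, 2.94 and 3.33 FPKM in control (log2 fold change -1.30, adjusted p = 0.00476). Tbx5, the T-box factor of the first heart field, had 0.388, 0.564 and 0.596 FPKM in LncCPR-KO and 2.2, 2.86 and 2.04 FPKM in control (log2 fold change -1.15, adjusted p = 0.00983); without control 2 (adjusted p = 0.0619) it did not pass. Meis1, a homeobox cofactor, had 6.31, 4.82 and 6.69 FPKM in LncCPR-KO and 18.8, 14.3 and 14.3 FPKM in control (log2 fold change -1.28, adjusted p = 0.0027). Gata4, a zinc finger factor of heart and endoderm, fell by less (13.4, 11.5 and 11 FPKM in LncCPR-KO and 22.9, 18.1 and 19.9 FPKM in control, log2 fold change -0.71, adjusted p = 0.0261), and its call ended without any 1 library except LncCPR-KO 3 (adjusted p = 0.0526 to 0.105). Gata6 had 4.49, 4.67 and 6.07 FPKM in LncCPR-KO and 14.7, 10.9 and 9.75 FPKM in control (log2 fold change -1.06, adjusted p = 0.0122) and did not pass without LncCPR-KO 1 or control 1 (adjusted p = 0.0508 to 0.0509). The other 3 lower members were Smarcd3 (-1.20), a subunit of a chromatin remodelling complex of heart progenitors, Gata5 (-1.19) and Myocd (-1.10), a coactivator of serum response factor, named outside the rule. Gata5 did not pass without control 2 (adjusted p = 0.0622). Nkx2-5, the homeobox factor of heart progenitors and heart muscle, had 3.33, 3.1 and 2.33 FPKM in LncCPR-KO and 6.48, 4.91 and 4.19 FPKM in control without overlap and did not pass (log2 fold change -0.65, adjusted p = 0.11). Isl1, which marks progenitors of the second heart field and several neurons, had 8.22, 9.39 and 7.76 FPKM in LncCPR-KO and 9.79, 8.45 and 7.39 FPKM in control, with the groups overlapping (log2 fold change -0.01, SE 0.15, adjusted p = 0.984). Srf, Irx5, Foxc1 and Hopx also lay within 0.1 of 0 on the log2 scale. Without control 2, 9 members were lower, and at most 12 were lower without any other library. The FPKM of the 30 members summed to between 215 and 220.1 in LncCPR-KO and between 357 and 426 in control.

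Muscle isoforms of energy metabolism were lower in part. Of 15 tested genes 5 fell and 0 rose, with a median log2 fold change of -0.43. Cox6a2, the heart and skeletal muscle form of a cytochrome c oxidase subunit, had 0.625, 0.812 and 0.519 FPKM in LncCPR-KO and 6.08, 4.72 and 4.34 FPKM in control (log2 fold change -1.86, adjusted p = 0.000441). Pgam2, muscle phosphoglycerate mutase, had 6.18, 8.1 and 5.16 FPKM in LncCPR-KO and 21.5, 20.0 and 16 FPKM in control (log2 fold change -1.44, adjusted p = 0.00191). The nuclear receptor Esrrg (chromosome 1), the coactivator Ppargc1a and the glycogen phosphorylase Pygm also fell (-1.64, -1.24 and -1.44, adjusted p = 0.00090, 0.0129 and 0.00907). All 5 had no overlap between the groups, and 4 of the 5 lay under 2 FPKM in every LncCPR-KO library. Ppargc1a lost its call without control 1 or control 3 (adjusted p = 0.0562 to 0.0682). Nppa, the atrial natriuretic peptide and a marker of chamber muscle, stood at 0.952, 0.645 and 0.197 FPKM in LncCPR-KO and 0.732, 0.386 and 0.63 FPKM in control, under the filter in both groups. Nppb, the B-type peptide, had 5.16 ± 0.869 FPKM in LncCPR-KO and 3.98 ± 1.36 FPKM in control and did not pass (log2 fold change 0.33, adjusted p = 0.456).

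Smooth muscle genes changed in part. Of 5 tested skeletal muscle genes 0 were called by limma, with 1 at an unadjusted p under 0.05 and 1 called with library quality weights, and with log2 fold changes of -0.22 to 0.58, while Myod1 and Myog stayed under the filter. Acta2, smooth muscle actin, which early heart muscle also makes, had 319.9, 354 and 266 FPKM in LncCPR-KO embryoid bodies, against 409.7, 425 and 344 FPKM in control embryoid bodies and did not pass (log2 fold change -0.33, SE 0.17, adjusted p = 0.354). Tagln, the calponin-like protein SM22, was higher, with 236, 229 and 168 FPKM in LncCPR-KO and 119, 141 and 97.2 FPKM in control (log2 fold change 0.82, adjusted p = 0.0448), although its call ended without any 1 library except LncCPR-KO 3 (adjusted p = 0.0756 to 0.174). Synpo2, an actin-bundling protein, and Pcp4, a calmodulin regulator, were lower (-1.25 and -1.42, adjusted p = 0.00635 and 0.0225). Pcp4, at no more than 0.24 FPKM in LncCPR-KO, did not pass without LncCPR-KO 1 or LncCPR-KO 2 (adjusted p = 0.0517 to 0.0713) and fell under the filter without control 1 or control 2. With Des, 3 of 11 tested smooth muscle genes fell (27.3%, against 2.0% of all genes) and 1 rose (9.09%, against 1.28%). Without LncCPR-KO 1, control 1 or control 2 only 1 of the list was lower.

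Genes of epicardium, heart cushions and mesenchyme fell in part too. Of 18 tested members 7 fell and 1, Krt19, rose, with a median log2 fold change of -0.40. Pdgfra, the receptor of platelet-derived growth factor on early heart and other mesoderm, had 4.45, 3.77 and 4.41 FPKM in LncCPR-KO embryoid bodies, against 16.9, 14 and 14.2 FPKM in control embryoid bodies (log2 fold change -1.62, SE 0.15, adjusted p = 0.000256). Vcan, the proteoglycan versican of the cardiac jelly, had 33.9, 36.7 and 40.5 FPKM in LncCPR-KO embryoid bodies, against 92.6, 109.6 and 97.1 FPKM in control embryoid bodies (log2 fold change -1.41, SE 0.13, adjusted p = 0.000314). Neither gene had any overlap, and the control mean was 3.57-fold the LncCPR-KO mean for Pdgfra and 2.69-fold for Vcan. Pdgfrb, a receptor of pericytes and smooth muscle precursors, Cdh11, a mesenchymal cadherin, and Snai2, a repressor of epithelial genes, fell by about as much as each other (-1.10, -1.08 and -1.07, adjusted p = 0.00425, 0.0055 and 0.00844). Lum, the keratan sulfate proteoglycan lumican, fell (-1.01, adjusted p = 0.015), a call that ended without LncCPR-KO 2, control 1, control 2 or control 3 (adjusted p = 0.0517 to 0.0705). Tgfb2, a ligand of cushion formation on chromosome 1, had 32, 35.7 and 41.5 FPKM in LncCPR-KO and 66, 55.9 and 54.6 FPKM in control (log2 fold change -0.68, adjusted p = 0.0319) and lost its call without any 1 library except LncCPR-KO 3 (adjusted p = 0.0717 to 0.154).

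**Figure D2:**
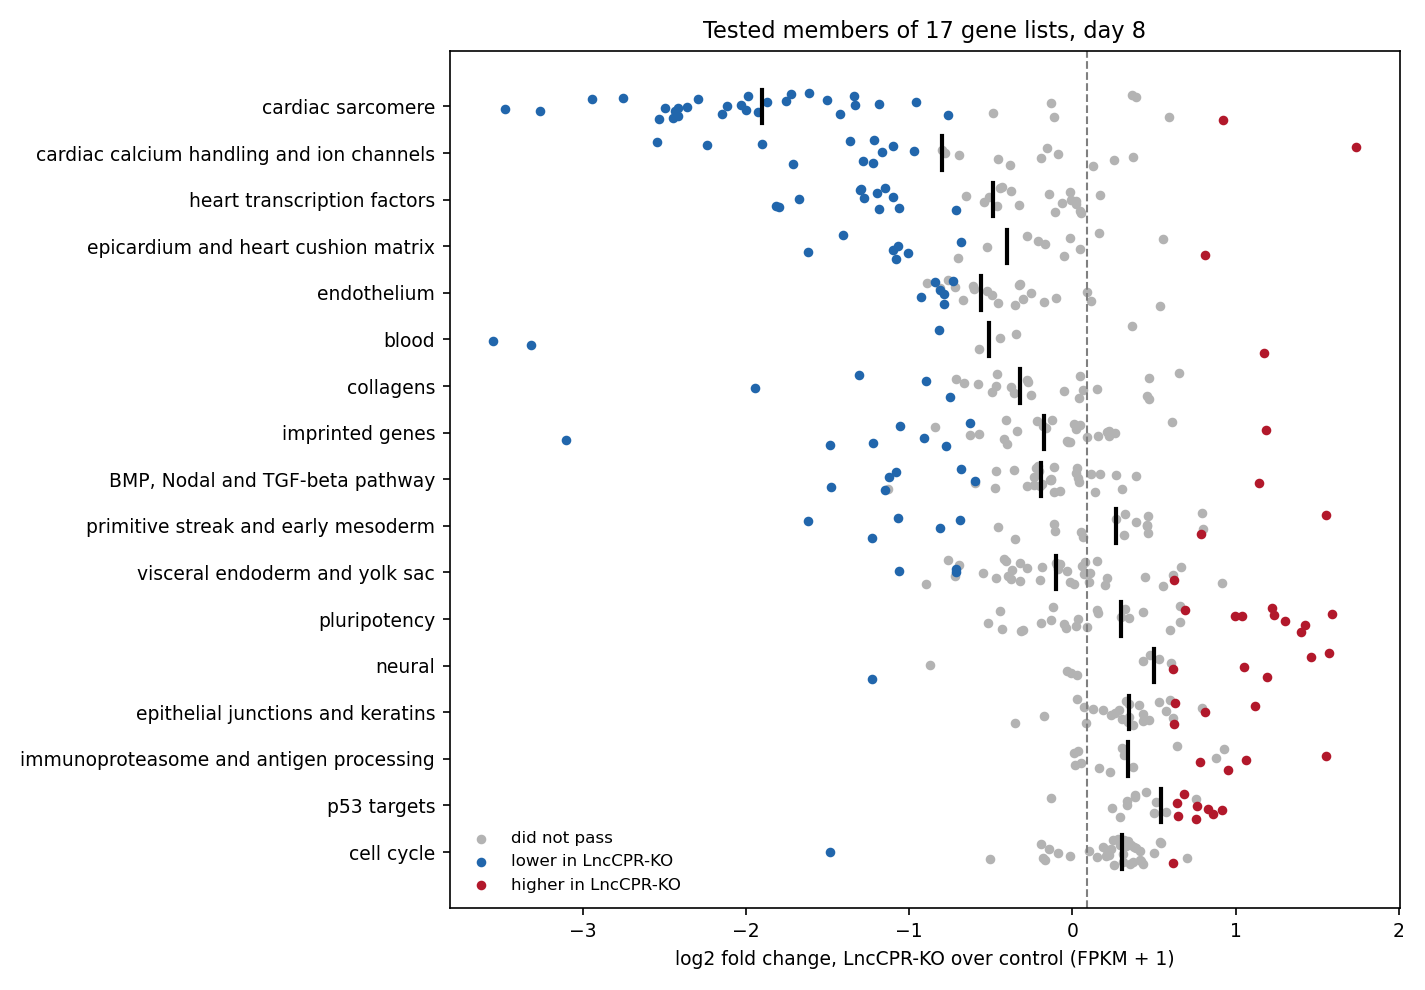
Log2 fold change of LncCPR-KO over control (FPKM + 1) for each tested member of 17 gene lists at day 8. Points are genes, blue where lower and red where higher at an adjusted p under 0.05 and grey where not; black bars are list medians and the dashed line is the median of all genes, 0.09. The cardiac sarcomere list, with a median of -1.90, lies furthest to the left, and 9 pluripotency genes lie to the right.

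Collagens and basement membrane genes showed fewer calls. Of 24 collagens tested 4 fell: Col3a1, the fibrillar collagen of loose tissue, with 3.98, 3.64 and 2.75 FPKM in LncCPR-KO and 18.3, 15.6 and 14.5 FPKM in control (log2 fold change -1.95, adjusted p = 0.000172), and Col9a1, Col5a2 and Col13a1 (-1.31, -0.89 and -0.75, adjusted p = 0.00455, 0.0361 and 0.0473). The first 3 of these 4 lie on chromosome 1. Col5a2 did not pass without any 1 of the 6 libraries (adjusted p = 0.0505 to 0.188), nor did Col13a1 without any 1 of the 6 libraries (adjusted p = 0.0506 to 0.17), so 2 of the 24 fell whichever library was left out, and 10 fell on rescaled libraries. Col1a1, the main collagen of bone and fibroblasts, had 4.43, 4.44 and 5.35 FPKM in LncCPR-KO and 8.34, 5.37 and 5.67 FPKM in control and did not pass (log2 fold change -0.36, adjusted p = 0.341), nor did the matrix protein fibronectin, Fn1, with 174 ± 34.6 FPKM in LncCPR-KO and 213 ± 31.6 FPKM in control (log2 fold change -0.30, adjusted p = 0.429). Among 30 laminin and basement membrane genes 3 fell: Lama4, a laminin chain of vessels and muscle (-0.96, adjusted p = 0.00452), Fbln1, fibulin 1 (-0.87, adjusted p = 0.0138), and Lama1 (-0.72, adjusted p = 0.0495). Fbln1 lost its call without LncCPR-KO 1, control 1 or control 2 (adjusted p = 0.054 to 0.0682), and Lama1 lost it without any 1 library except LncCPR-KO 3 (adjusted p = 0.128 to 0.174).

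Vessel and blood genes, which come from mesoderm next to that of the heart, differed in size of change. Of 26 tested endothelial genes 6 fell and 0 rose, and 23 of 26 had a negative log2 fold change, with a median of -0.56. Kdr, the VEGF receptor of early vessel and heart progenitors, had 15.6, 14.4 and 18.6 FPKM in LncCPR-KO embryoid bodies, against 28.6, 28.5 and 29.9 FPKM in control embryoid bodies (log2 fold change -0.81, SE 0.14, adjusted p = 0.0102). Cdh5, the cadherin of vessel junctions, had 10.2, 9.28 and 10.6 FPKM in LncCPR-KO embryoid bodies, against 17.4, 19.2 and 17.4 FPKM in control embryoid bodies (log2 fold change -0.79, SE 0.13, adjusted p = 0.0102). The groups lay apart in both, and the control mean was 1.79-fold the LncCPR-KO mean for Kdr and 1.8-fold for Cdh5. The FPKM of the 26 genes summed to between 140.5 and 175 in LncCPR-KO and between 216 and 237 in control. Tek and Tie1, the receptors of the angiopoietin system, Esm1, a secreted product of tip cells, and the ETS factor Fli1 also fell (-0.84, -0.73, -0.93 and -0.78, adjusted p = 0.0293, 0.0448, 0.014 and 0.0424). Pecam1, the adhesion molecule CD31, had 6.02, 9.98 and 6.94 FPKM in LncCPR-KO and 12.4, 14.1 and 12.4 FPKM in control without overlap and did not pass (log2 fold change -0.72, adjusted p = 0.0662).

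These endothelial calls are near the threshold. Without control 2, 0 of the 26 were called by limma, and at most 5 were called when another library was left out; with all 6 libraries 15 were lower at an unadjusted p under 0.05. Kdr did not pass without LncCPR-KO 1 or control 2 (adjusted p = 0.053 to 0.0562), Cdh5 without control 2 (adjusted p = 0.077), and Esm1 without control 1, control 2 or control 3 (adjusted p = 0.0505 to 0.0855). Kdr also did not pass in the limma fit over 36 libraries (adjusted p = 0.0654). Tek did not pass without any 1 library except LncCPR-KO 3 (adjusted p = 0.0698 to 0.139), Tie1 without any 1 of the 6 libraries (adjusted p = 0.0639 to 0.172), and Fli1 without any 1 of the 6 libraries (adjusted p = 0.0533 to 0.147). On rescaled libraries, 13 of the 26 fell.

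The embryonic globins were among the genes of largest decrease at this day. Hbb-bh1, the beta-like globin of the first red cells of the yolk sac, had 0, 0.87 and 0.417 FPKM in LncCPR-KO embryoid bodies, against 16.9, 14.4 and 14.3 FPKM in control embryoid bodies (log2 fold change -3.55, SE 0.23, adjusted p = 3.88e-05). Hba-x, the alpha-like globin zeta made at the same stage, had 0.868, 0.676 and 0.156 FPKM in LncCPR-KO embryoid bodies, against 14.7, 12.8 and 15.6 FPKM in control embryoid bodies (log2 fold change -3.32, SE 0.21, adjusted p = 3.88e-05). Both were below 1 FPKM in every LncCPR-KO library and above 12 FPKM in every control library. The globin genes are close copies, and Hbb-y, the other embryonic beta-like globin, had 0, 0 and 0 FPKM in LncCPR-KO and 0.572, 0.173 and 0.864 FPKM in control, under the filter. Most other red cell genes of the list, among them Gata1, Klf1 and Alas2, stayed under the filter, and 8 of 31 matched genes were tested. Lmo2, a partner of the blood factor Tal1 that endothelium also makes, fell (2.35, 2.35 and 2.12 FPKM in LncCPR-KO and 5.62, 4.21 and 4.59 FPKM in control, log2 fold change -0.82, adjusted p = 0.0267) but not without any 1 library except LncCPR-KO 3 (adjusted p = 0.0642 to 0.107). Car2, carbonic anhydrase 2 of red cells and several epithelia, rose, with 75.7, 92.2 and 67 FPKM in LncCPR-KO and 40.1, 32.4 and 29.9 FPKM in control (log2 fold change 1.17, adjusted p = 0.00366). Runx1, Kit, Cd34 and Itga2b did not pass.

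Genes of the undifferentiated epiblast rose in part. Of 31 tested pluripotency genes 9 rose and 0 fell, against 1.28% higher among all genes, with a median log2 fold change of 0.30. Pou5f1, which encodes Oct4, the factor that holds stem cells and epiblast undifferentiated, had 85.5, 104 and 57.9 FPKM in LncCPR-KO embryoid bodies, against 27.9, 24.7 and 25.3 FPKM in control embryoid bodies (log2 fold change 1.59, SE 0.20, adjusted p = 0.00176). Nanog, its partner in the pluripotency network, had 20.1, 29.3 and 18.4 FPKM in LncCPR-KO embryoid bodies, against 10.3, 10.1 and 10.4 FPKM in control embryoid bodies (log2 fold change 1.04, SE 0.17, adjusted p = 0.0103). Every LncCPR-KO library was above every control library in both, with LncCPR-KO at 3.18-fold and 2.2-fold the control mean. Nanog did not pass without control 2 (adjusted p = 0.0522).

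Several others that rose are known for the later, primed epiblast. Fgf5, a growth factor that marks this stage, had 23.4, 23.5 and 18.7 FPKM in LncCPR-KO embryoid bodies, against 7.48, 7.61 and 7.35 FPKM in control embryoid bodies (log2 fold change 1.42, SE 0.14, adjusted p = 0.000421). Dnmt3b, the DNA methyltransferase that sets new methylation at implantation, had 95.3, 123 and 78.2 FPKM in LncCPR-KO embryoid bodies, against 46.2, 33.3 and 30.6 FPKM in control embryoid bodies (log2 fold change 1.40, SE 0.20, adjusted p = 0.00425). L1td1, an RNA-binding protein of stem cells, had 51.5, 49.9 and 48.4 FPKM in LncCPR-KO embryoid bodies, against 19.9, 18.2 and 21 FPKM in control embryoid bodies (log2 fold change 1.30, SE 0.12, adjusted p = 0.000314). No library of the 2 groups overlapped in any of the 3 genes. Pou3f1, the POU factor Oct6, had 2.46, 3.31 and 2.26 FPKM in LncCPR-KO and 0.487, 0.587 and 0.577 FPKM in control (log2 fold change 1.24, adjusted p = 0.0066). Utf1, a chromatin protein of stem cells, had 9.75, 5.02 and 6.43 FPKM in LncCPR-KO and 1.86, 2.11 and 3.27 FPKM in control (log2 fold change 1.22, adjusted p = 0.0238), and it did not pass without LncCPR-KO 1, control 1 or control 2 (adjusted p = 0.0751 to 0.102) or on rescaled libraries. The other 2, outside the rule, were Phc1 (1.0), a Polycomb protein, and Tdgf1 (0.69), the Nodal coreceptor Cripto. Tdgf1 did not pass without any 1 library except LncCPR-KO 3 (adjusted p = 0.0735 to 0.16). The naive stem cell genes Zfp42, Esrrb, Klf4, Klf2 and Dppa3 had log2 fold changes of -0.12, -0.04, -0.19, -0.52 and -0.30 and did not pass, and neither did Sox2, with 35.3 ± 5.33 FPKM in LncCPR-KO and 25.8 ± 1.68 FPKM in control (log2 fold change 0.43, adjusted p = 0.152). Without control 2, 6 members were higher, and at most 9 were without any other library. The FPKM of the 31 genes summed to between 654 and 826 in LncCPR-KO and between 430.3 and 491 in control.

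**Figure D3:**
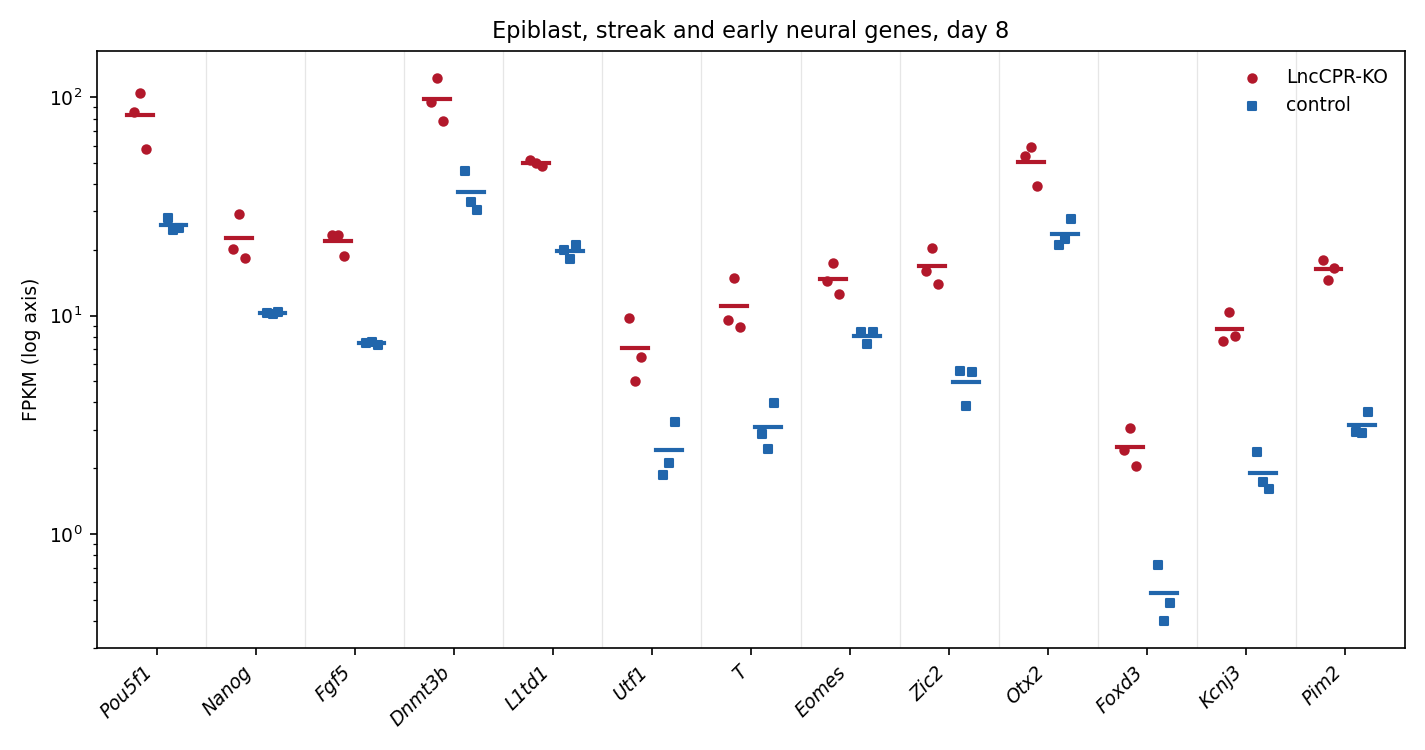
FPKM on a log axis of 13 genes in the 3 LncCPR-KO libraries (red circles) and 3 control libraries (blue squares) at day 8, with bars at the group means. In each gene all LncCPR-KO points lie above all control points, by 3.18-fold in the means of Pou5f1 and by 1.83-fold in those of Eomes.

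The list of primitive streak and early mesoderm genes, of which 23 were tested, held 2 higher genes, T and Eomes, and 5 lower ones. Its median log2 fold change was 0.26, and -0.46 over genes averaging at least 5 FPKM. T, brachyury, which marks the streak and nascent mesoderm, had 9.57, 14.9 and 8.85 FPKM in LncCPR-KO embryoid bodies, against 2.85, 2.44 and 3.96 FPKM in control embryoid bodies (log2 fold change 1.55, SE 0.22, adjusted p = 0.00394). Eomes, the T-box factor that acts upstream of Mesp1 and of endoderm, had 14.3, 17.4 and 12.5 FPKM in LncCPR-KO and 8.37, 7.43 and 8.44 FPKM in control (log2 fold change 0.79, adjusted p = 0.0235). It did not pass without any 1 library except LncCPR-KO 3 (adjusted p = 0.0605 to 0.128). The lower ones were Pdgfra, Snai2 and Kdr, given above, with Rspo3 and Cdx2. Cdx2, a homeobox factor of the tail bud, gut and trophoblast, had 0.0819, 0.101 and 0.453 FPKM in LncCPR-KO and 2.83, 1.15 and 1.7 FPKM in control (log2 fold change -1.23, adjusted p = 0.028) and did not pass without LncCPR-KO 1 or LncCPR-KO 2 (adjusted p = 0.0872 to 0.0882). Without control 1 or control 3 it fell under the filter. Mesp1 was under the filter in both groups at this day, with 0.538, 1.56 and 0.737 FPKM in LncCPR-KO and 0.813, 0.425 and 0.673 FPKM in control. Mixl1, Gsc, Nodal, Wnt3 and Lhx1, other genes of the streak, did not pass. Lower members numbered 2 without LncCPR-KO 1 and at most 4 without any other library.

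Early neural and neural border genes rose in part. Of 14 tested neural genes 5 rose (35.7%, against 1.28% of all genes) and 1 fell (7.14%, against 2.0%), with a median log2 fold change of 0.50. Zic2, a zinc finger factor of epiblast and neural plate, had 15.9, 20.4 and 14 FPKM in LncCPR-KO embryoid bodies, against 5.57, 3.86 and 5.5 FPKM in control embryoid bodies (log2 fold change 1.57, SE 0.19, adjusted p = 0.00137). Its neighbour Zic5 on chromosome 14, which lies head to head with it, had 11, 14.3 and 9.12 FPKM in LncCPR-KO embryoid bodies, against 3.28, 3.75 and 2.28 FPKM in control embryoid bodies (log2 fold change 1.60, SE 0.20, adjusted p = 0.00206). Stmn2, a microtubule regulator of young neurons, had 25.2, 26.8 and 18.2 FPKM in LncCPR-KO embryoid bodies, against 7.3, 8.52 and 7.51 FPKM in control embryoid bodies (log2 fold change 1.46, SE 0.17, adjusted p = 0.00107). No overlap was seen in these 3. Otx2, a homeobox factor of epiblast and forebrain, Foxd3, a factor of epiblast and neural crest, and Nes, the intermediate filament nestin, rose by 1.05, 1.19 and 0.61 on the log2 scale (adjusted p = 0.0107, 0.00974 and 0.0379). Otx2 did not pass without control 1 or control 2 (adjusted p = 0.0557 to 0.0562), Foxd3 without control 2 (adjusted p = 0.0522), and Nes without any 1 library except LncCPR-KO 3 (adjusted p = 0.0689 to 0.158). Crabp1, a retinoic acid binding protein of hindbrain and crest, fell (4.12, 4.96 and 3.63 FPKM in LncCPR-KO and 11.9, 9.34 and 12.5 FPKM in control, log2 fold change -1.23, adjusted p = 0.00357). Pax6, the eye and neural tube factor, had 1.65, 1.14 and 0.592 FPKM in LncCPR-KO and 2.59, 3.19 and 2.69 FPKM in control without overlap and did not pass (log2 fold change -0.87, adjusted p = 0.0644). Under the filter were 20 of 34 matched genes, most of them genes of maturing neurons. Higher members numbered 2 without control 2 and at most 5 without any other library.

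Among endoderm genes, the yolk sac markers below did not pass. Afp, the fetal serum protein of visceral endoderm and yolk sac, had 56.4, 77.9 and 48.8 FPKM in LncCPR-KO and 67.7, 44.1 and 21.9 FPKM in control, with wide overlap (log2 fold change 0.56, adjusted p = 0.427). Ttr, a thyroid hormone carrier of the same tissues, had 43.6 ± 6.1 FPKM in LncCPR-KO and 78.4 ± 31.5 FPKM in control (log2 fold change -0.76, adjusted p = 0.15), also with overlap. Neither passed, and in both the control libraries differed more among themselves than the LncCPR-KO libraries did. In the visceral endoderm and yolk sac list 1 of 40 genes rose (2.5%, against 1.28% of all genes) and 3 fell (7.5%, against 2.0%), the 3 being Gata4, Gata6 and Lama1, which heart or other tissues also make. Cdh1 was the 1 that rose. None of the 3 was lower without LncCPR-KO 1 or control 1, while 8 of the list were lower on rescaled libraries. The gut list had Trh, the thyrotropin-releasing hormone (134, 143 and 103 FPKM in LncCPR-KO and 56.2, 49.3 and 51.8 FPKM in control, log2 fold change 1.24, adjusted p = 0.00174), and Krt19, a keratin of simple epithelia (36.5, 29.1 and 31.2 FPKM in LncCPR-KO and 18.5, 20.0 and 15.4 FPKM in control, log2 fold change 0.81, adjusted p = 0.0157), higher. Prox1 (chromosome 1), a homeobox factor of liver, lymph vessels and heart, fell (3.38, 3.15 and 2.88 FPKM in LncCPR-KO and 7.09, 7.08 and 7.35 FPKM in control, log2 fold change -0.98, adjusted p = 0.00572), as did Cdx2.

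Of 29 epithelial genes 4 rose (13.8%, against 1.28% of all genes), Cdh1, the epithelial cadherin, with 75.4, 68.5 and 80.3 FPKM in LncCPR-KO and 49.7, 42.7 and 52.1 FPKM in control (log2 fold change 0.62, adjusted p = 0.0355), Krt19, Rab25, a trafficking GTPase (1.12, adjusted p = 0.0268), and St14, the protease matriptase (0.63, adjusted p = 0.0388). Krt19 did not pass without LncCPR-KO 1, control 1 or control 3 (adjusted p = 0.0546 to 0.0807), Cdh1 without LncCPR-KO 1, control 1, control 2 or control 3 (adjusted p = 0.0729 to 0.216), Rab25 without any 1 library except control 2 (adjusted p = 0.0566 to 0.0997), and St14 without any 1 library except LncCPR-KO 3 (adjusted p = 0.0963 to 0.149). Cdh1, Rab25 and Nes also lost their calls on rescaled libraries. Without LncCPR-KO 1, control 1 or control 3, 0 of the 29 were called by limma. With all 6 libraries 15 were higher at an unadjusted p under 0.05, 13 were called higher with library quality weights and 10 in the fit over 36 libraries.

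BMP signals induce heart mesoderm. Of 36 tested genes of the BMP, Nodal and TGF-beta list 6 fell (16.7%, against 2.0% of all genes) and 1 rose (2.78%, against 1.28%). The rest did not pass. The median log2 fold change of the list was -0.19, and 0.09 over all genes. On rescaled libraries 9 fell. Bmp5, a BMP ligand of early heart, had 11.4, 9.65 and 14.3 FPKM in LncCPR-KO embryoid bodies, against 33, 35 and 35.1 FPKM in control embryoid bodies (log2 fold change -1.48, SE 0.15, adjusted p = 0.000567). The groups were well apart. Bambi, a pseudoreceptor that BMP signals induce, Msx1, a homeobox target of BMP, and Smad6, an inhibitory SMAD that the pathway also induces, fell (-1.15, -1.13 and -1.08, adjusted p = 0.0055, 0.00936 and 0.0235). Smad6 did not pass without LncCPR-KO 1 or control 1 (adjusted p = 0.0773 to 0.0829). Tgfb2 is given above, and Id2, the sixth and outside the rule, fell as well (-0.60, adjusted p = 0.0424) but not without any 1 library except LncCPR-KO 2 (adjusted p = 0.0571 to 0.221). The 1 member that rose was Fst, follistatin, a secreted antagonist of activin and BMP, with 11.8, 17.1 and 12.2 FPKM in LncCPR-KO and 4.15, 6.44 and 6.39 FPKM in control (log2 fold change 1.14, adjusted p = 0.0128). Id1, Id3, Id4, Smad7 and Msx2, also on the list, were not called, and whether BMP signals differed was not tested. Without LncCPR-KO 1 or control 1, 3 of the list were lower. In the Wnt list 2 of 31 fell (6.45%, against 2.0% of all genes), while 7 did on rescaled libraries and 8 in the fit over 36 libraries. The 2 were Wnt2, a ligand of early heart and allantois, with 0.426, 0.314 and 0.313 FPKM in LncCPR-KO embryoid bodies, against 3.21, 5.35 and 4.43 FPKM in control embryoid bodies (log2 fold change -1.96, SE 0.20, adjusted p = 0.000545), and Rspo3, an enhancer of Wnt signals (-0.69, adjusted p = 0.038), which did not pass without any 1 of the 6 libraries (adjusted p = 0.058 to 0.125). Wnt2 lay under 0.5 FPKM in every LncCPR-KO library and above 3 FPKM in every control library.

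Among 32 tested imprinted genes, which are expressed from 1 parental allele, 7 fell (21.9%, against 2.0% of all genes) and 1 rose (3.125%, against 1.28%). H19, a maternally expressed noncoding RNA of embryonic mesoderm and endoderm, had 32.7, 17.6 and 14.6 FPKM in LncCPR-KO embryoid bodies, against 164, 198 and 186 FPKM in control embryoid bodies (log2 fold change -3.10, SE 0.25, adjusted p = 0.00011). The control mean was 8.46-fold the LncCPR-KO mean, with no overlap. Its neighbour Igf2, a growth factor gene that is expressed from the other allele and is named outside the rule, had 579, 512 and 646 FPKM in LncCPR-KO and 796, 724 and 792 FPKM in control and did not pass (log2 fold change -0.42, adjusted p = 0.262). Cdkn1c, a cyclin-dependent kinase inhibitor, had 42.2, 32.9 and 42.6 FPKM in LncCPR-KO embryoid bodies, against 99.3, 120.5 and 114 FPKM in control embryoid bodies (log2 fold change -1.49, SE 0.15, adjusted p = 0.000442), again without overlap. Plagl1, a zinc finger factor, fell (-1.06, adjusted p = 0.0031). Dlk1, a membrane ligand related to Notch ligands, fell (-1.22, adjusted p = 0.0158) but not without LncCPR-KO 1, control 1 or control 3 (adjusted p = 0.0502 to 0.073). Igf2r, the receptor that clears Igf2, fell (71.7, 88 and 95.6 FPKM in LncCPR-KO and 159, 170.5 and 151 FPKM in control, log2 fold change -0.91, adjusted p = 0.00924) but not without LncCPR-KO 1 or control 2 (adjusted p = 0.0569 to 0.0622); it overlaps the antisense RNA Airn (-0.77, adjusted p = 0.0221, lost without LncCPR-KO 1, LncCPR-KO 2, control 1 or control 2 (adjusted p = 0.0612 to 0.0849)), and whether the counting used the strand is not given, so reads of the 2 cannot be told apart. Nnat, neuronatin, rose (136, 137 and 72.4 FPKM in LncCPR-KO and 53.2, 46.8 and 44.3 FPKM in control, log2 fold change 1.19, adjusted p = 0.0221) but not without any 1 library except LncCPR-KO 3 (adjusted p = 0.0607 to 0.0891). The other lower member, outside the rule, was Slc38a4, an amino acid transporter (-0.63, adjusted p = 0.0258), lost without LncCPR-KO 1, control 1, control 2 or control 3 (adjusted p = 0.0658 to 0.158). Without LncCPR-KO 1, 3 of the list were lower.

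Targets of the p53 pathway and of interferon signals rose in part. Of 20 p53 targets 8 rose (40%, against 1.28% of all genes), 0 fell and 19 had a positive log2 fold change, with a median of 0.54. Ccng1, cyclin G1, had 104, 124 and 93.9 FPKM in LncCPR-KO embryoid bodies, against 62.2, 62.3 and 51.3 FPKM in control embryoid bodies (log2 fold change 0.86, SE 0.15, adjusted p = 0.013). Eda2r, a receptor of the TNF family, Aen, an apoptosis-linked exonuclease, Trp53inp1, Gtse1 and Ddit4l rose by 0.69 to 0.92 on the log2 scale (adjusted p = 0.0149, 0.036, 0.0295, 0.0366 and 0.0461). Ccng1 did not pass without LncCPR-KO 1, control 2 or control 3 (adjusted p = 0.0542 to 0.0587), Eda2r without LncCPR-KO 1, control 1, control 2 or control 3 (adjusted p = 0.0539 to 0.0757), Aen without any 1 library except LncCPR-KO 3 (adjusted p = 0.0959 to 0.121), Trp53inp1 without any 1 library except LncCPR-KO 3 (adjusted p = 0.0622 to 0.123), Gtse1 without LncCPR-KO 1, LncCPR-KO 2, control 2 or control 3 (adjusted p = 0.0859 to 0.184), and Ddit4l without any 1 library except LncCPR-KO 2 (adjusted p = 0.0748 to 0.19). The last also failed on rescaled libraries. The other 2, Bbc3 and Perp, outside the rule, rose by 0.64 and 0.64 (adjusted p = 0.0355 and 0.0268). Bbc3 did not pass without any 1 library except LncCPR-KO 3 (adjusted p = 0.0894 to 0.172), nor Perp without any 1 library except LncCPR-KO 3 (adjusted p = 0.0744 to 0.112). Without LncCPR-KO 1, control 2 or control 3, 0 of the 20 were called, while 17 were higher at an unadjusted p under 0.05 with all libraries, and Cdkn1a and Mdm2, the best known targets, did not pass (0.50 and 0.33, adjusted p = 0.277 and 0.238).

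Of 16 genes of antigen processing and interferon response 4 rose (25%, against 1.28% of all genes). Psmb8, a subunit of the immunoproteasome, had 6.09, 7.8 and 8.12 FPKM in LncCPR-KO embryoid bodies, against 2.83, 1.35 and 1.5 FPKM in control embryoid bodies (log2 fold change 1.55, SE 0.22, adjusted p = 0.00375), and Irf1, an interferon regulatory factor, had 29.8, 33.8 and 26.3 FPKM in LncCPR-KO embryoid bodies, against 13.3, 13 and 15 FPKM in control embryoid bodies (log2 fold change 1.06, SE 0.14, adjusted p = 0.00261). The groups lay apart in both. The membrane proteins Bst2 and Ifitm3, which restrict viruses, rose by 0.95 and 0.78 (adjusted p = 0.0128 and 0.0213). Bst2 did not pass without LncCPR-KO 1 or control 2 (adjusted p = 0.0586 to 0.0618), nor Ifitm3 without LncCPR-KO 1, LncCPR-KO 2, control 2 or control 3 (adjusted p = 0.0587 to 0.122). Of 29 stress response genes Slc7a3, an arginine transporter, rose (1.34, adjusted p = 0.00391), and Herpud1, of the endoplasmic reticulum stress response, fell (-0.70, adjusted p = 0.0479), though not without any 1 library except LncCPR-KO 2 (adjusted p = 0.0694 to 0.189). These single calls are 3.45% of the stress list in each direction, against 1.28% higher and 2.0% lower among all genes. Of 39 cell cycle genes Cdkn1c fell and Bub1, a spindle checkpoint kinase, rose (45.4, 47.1 and 37.9 FPKM in LncCPR-KO and 30.5, 26.7 and 26.7 FPKM in control, log2 fold change 0.62, adjusted p = 0.0396), though not without any 1 library except LncCPR-KO 3 (adjusted p = 0.0788 to 0.20). Of the 39, 31 had a log2 fold change above 0, with a median of 0.30. The shares called, 2.56% in each direction, are near those of all genes, but the number higher was 5 without LncCPR-KO 3 and 17 with library quality weights, and 12 were higher at an unadjusted p under 0.05.

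By limma 0 of 30 hypoxia and glycolysis genes, 13 transcripts of the mitochondrial genome, 4 germline genes and 1 tested Hox gene were called. At an unadjusted p under 0.05, 4 hypoxia genes were higher and 3 lower, 3 mitochondrial transcripts and 1 germline gene were higher, and 0 Hox genes were counted. With library quality weights 3 hypoxia genes were called higher and 2 lower, and 5 mitochondrial transcripts higher and 1 lower. Of 35 Hox genes listed, 34 stayed under the filter in both groups. Of 17 Notch pathway genes Dlk1 fell (5.88%), of 14 genes of the retinoic acid pathway Crabp1 fell (7.14%), and of 5 natriuretic peptides and secreted heart products Bmp5 fell (20%), all given above. Among all genes 2.0% were lower, and a single call says little about a list this short. Of 10 trophoblast genes Eomes rose (10%) and Hand1 and Cdx2 fell (20%), each of which mesoderm also makes. The median log2 fold change of the hypoxia list was 0.10, and -0.02 on rescaled libraries.

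The largest called increase was that of Pim2, a serine/threonine kinase that promotes survival, with 18, 14.5 and 16.4 FPKM in LncCPR-KO embryoid bodies, against 2.94, 2.89 and 3.62 FPKM in control embryoid bodies (log2 fold change 2.06, SE 0.15, adjusted p = 7.83e-05). Enpp3, an ectonucleotidase, had 15.1, 18.5 and 13.8 FPKM in LncCPR-KO embryoid bodies, against 4.6, 4.99 and 5.79 FPKM in control embryoid bodies (log2 fold change 1.45, SE 0.16, adjusted p = 0.000804). Each LncCPR-KO library exceeded each control library in both. Among the lower genes outside the lists was Nepn, a small leucine-rich proteoglycan, with 0.225, 0.244 and 0.23 FPKM in LncCPR-KO and 6.16, 5.66 and 5.81 FPKM in control (log2 fold change -2.48, SE 0.17, adjusted p = 4.52e-05). The pseudogene Cct3-ps1 had 12, 2.58 and 10.1 FPKM in LncCPR-KO and 2.11, 0.889 and 0.845 FPKM in control (log2 fold change 1.86, adjusted p = 0.0483); LncCPR-KO 2 was near the highest control library, the gene shares reads with its parent Cct3, and the call ended without any 1 library except LncCPR-KO 2 (adjusted p = 0.0731 to 0.164) and on rescaled libraries.

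The distribution of chromosome 1 genes lay lower in LncCPR-KO than that of other chromosomes. Of 701 tested genes there, 0 were called higher by limma (26 at an unadjusted p under 0.05, 30 called with library quality weights) and 37 lower, and 84.9% lay below the median of the other chromosomes. Their median log2 fold change was -0.19 against 0.11 for all other genes, a shift of -0.29; the 18 other autosomes and X had shifts of -0.02 to 0.07. The shift lay between -0.28 and -0.30 without any 1 library, and at -0.07 where genes of all levels were kept. Chromosomes were looked up by gene identifier in GRCm38, since the tables hold no positions. Tnnt2, Tnni1, Des, Col3a1, Col9a1, Col5a2, Prox1, Tgfb2 and Esrrg lie there, and the part of the shift in their fold changes was not tested. Without chromosome 1 genes, 157 genes were higher and 210 lower. The number of copies of the chromosome was not measured. On the Y chromosome, Ddx3y, an RNA helicase gene, had 25.4, 29.6 and 20.8 FPKM in LncCPR-KO and 15.9, 14 and 11.9 FPKM in control (log2 fold change 0.81, adjusted p = 0.0268) and did not pass without any 1 library except LncCPR-KO 3 (adjusted p = 0.0503 to 0.113). The other tested Y genes, Uty and Eif2s3y, did not pass (0.36 and 0.56, adjusted p = 0.284 and 0.0856).

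**Figure D4:**
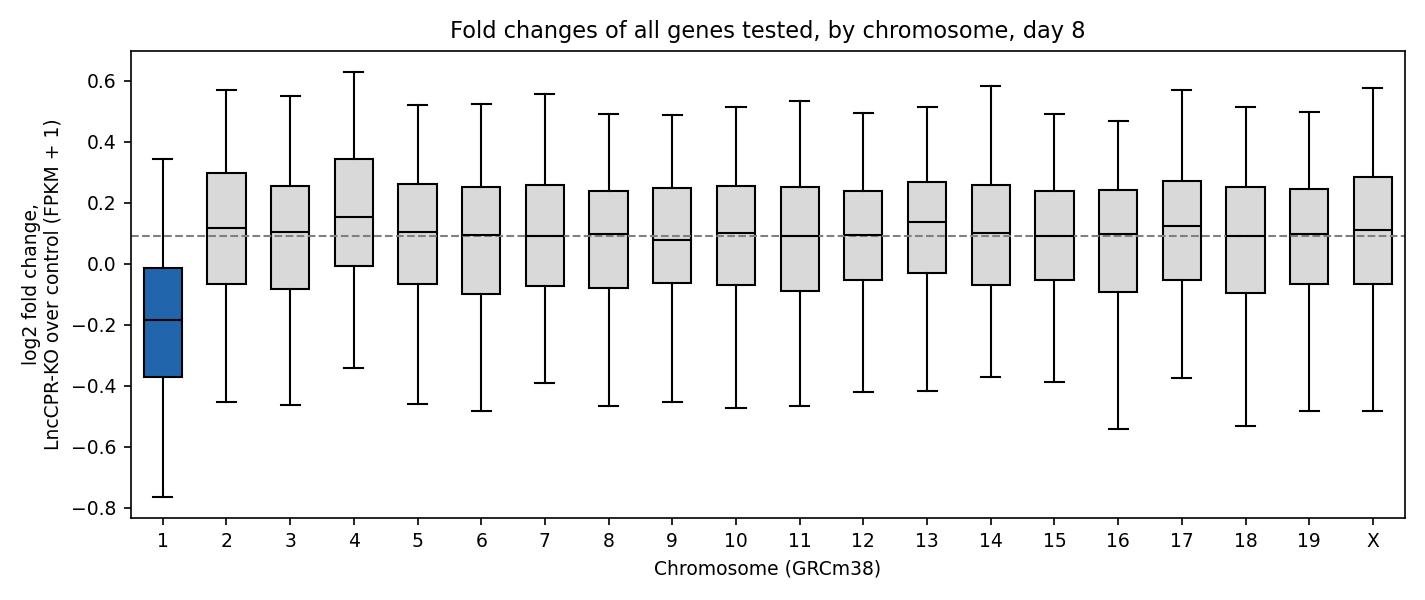
Log2 fold changes of LncCPR-KO over control (FPKM + 1) of the genes tested at day 8, by chromosome in GRCm38. Boxes span the quartiles with the median, whiskers run over the 5th to 95th percentile, and the dashed line is the median of all genes, 0.09. The box of chromosome 1 (blue), with a median of -0.19, lies below those of the other chromosomes.

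The effect of the knockout at day 8 was then set against that at day 5, when Mesp1 was high in control cells. The test was that of the difference between the effects (12 libraries, limma, 12755 genes), so that a scaling shared by a day's table largely cancels; levels of different days come from separate tables that may not share a scale. The difference was called in 334 genes (2.62%), 143 with a higher effect at day 8 and 191 with a lower one. Without control 2 of day 5, 86 had a higher effect, without LncCPR-KO 2 of day 5 this was 90 genes, without control 2 of day 8 93, and without control 3 of day 5 78; between 78 and 151 higher ones were found without any 1 of the 12 libraries. The genes named for this comparison below by rule, the 6 highest and 6 lowest differences, kept their calls under every alternative in which they were tested.

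The effect on Kdr and Capn6 was smaller at day 8 than at day 5. Kdr had 16.2 ± 2.17 FPKM in LncCPR-KO and 29 ± 0.77 FPKM in control at day 8, and 0.927 ± 0.0757 FPKM in LncCPR-KO and 19.4 ± 2.33 FPKM in control at day 5, effects of -0.81 and -3.40 (difference 2.59, SE 0.17, adjusted p = 3.71e-06). Mesp1, the factor of heart-forming mesoderm, had 0.944 ± 0.54 FPKM in LncCPR-KO and 0.637 ± 0.197 FPKM in control at day 8, and 1.32 ± 0.506 FPKM in LncCPR-KO and 16.2 ± 2.23 FPKM in control at day 5 (difference 3.12, SE 0.29, adjusted p = 3.52e-05). Capn6, a calpain without protease activity, had 72.8 ± 8.92 FPKM in LncCPR-KO and 72.9 ± 6.63 FPKM in control at day 8, and 1.06 ± 0.195 FPKM in LncCPR-KO and 19.5 ± 1.8 FPKM in control at day 5 (difference 3.31, SE 0.18, adjusted p = 6.01e-07). In Kdr and Capn6 the LncCPR-KO level was under 10% of the control level at day 5 while at day 8 it was at least 0.559 times it. Mesp1 was low in both groups at day 8 and entered the comparison through control at day 5, so a smaller difference at day 8 was given by its level. Dll1, a Notch ligand that stood near 1 FPKM in both groups at day 8, Lhfp, and Nxf7, of a family of RNA export factors, followed (differences 2.33, 2.46 and 2.13, adjusted p = 8.27e-05, 3.54e-05 and 0.000888). Isl1, with an effect of -0.01 at day 8 and -1.32 at day 5, Gata4 (0.89) and Fn1 (1.89) changed the same way (adjusted p = 0.000987, 0.0238 and 0.000253). Of 25 tested streak and early mesoderm genes 12 had a higher effect at day 8 and 1 a lower one. Among all 12755 genes 143 had a higher effect and 191 a lower one. Some of the streak genes, such as Mesp1 and Dll1, stood near or under 1 FPKM in both groups at day 8. There the added 1 keeps an effect small, so part of the count of 12 was given by their level. Hand1 and Hand2, with effects of -1.80 and -1.82 at day 8 and -2.92 and -2.66 at day 5, did not pass (adjusted p = 0.122 and 0.101).

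Heart muscle and globin genes went the other way. Actc1 had 52.4 ± 12 FPKM in LncCPR-KO and 304 ± 29 FPKM in control at day 8, and 9.26 ± 0.698 FPKM in LncCPR-KO and 5.06 ± 0.94 FPKM in control at day 5, effects of -2.53 and 0.77 (difference -3.30, SE 0.22, adjusted p = 3.71e-06). Slc8a1 had 11 ± 1.14 FPKM in LncCPR-KO and 69.8 ± 14 FPKM in control at day 8, and 1.87 ± 0.487 FPKM in LncCPR-KO and 1.25 ± 0.153 FPKM in control at day 5 (difference -2.88, SE 0.23, adjusted p = 1.12e-05). Tnni3, adult cardiac troponin I, had 1.63 ± 1.66 FPKM in LncCPR-KO and 10.6 ± 2.9 FPKM in control at day 8, and 4.13 ± 1.0 FPKM in LncCPR-KO and 2.02 ± 0.566 FPKM in control at day 5 (difference -3.06, SE 0.47, adjusted p = 0.0023). So these 3 genes were a little above control at day 5 and far below it at day 8. For Myl2, Hbb-bh1 and Hba-x, under 1 FPKM in both groups at day 5, the differences were -3.31, -3.46 and -3.28 (adjusted p = 4.59e-05, 1.05e-05 and 8.86e-06). Of 34 sarcomere genes 26 had a lower effect at day 8 and 0 a higher one, against 191 and 143 of all 12755 genes. Some of these sarcomere genes, such as Tnnt2, Myl2 and Myh6, stood under 1 FPKM in both groups at day 5. There the added 1 keeps an effect small, so part of this count was given by their level. Myh7 was called lower (difference -1.12, adjusted p = 0.000489). It had 0.36 FPKM in LncCPR-KO and 1.49 FPKM in control at day 5, and 32.4 and 132 FPKM at day 8. The proportion of LncCPR-KO to control on plain FPKM was thus similar on both days. Myl7, already at 0.697 ± 0.318 FPKM in LncCPR-KO and 4.7 ± 1.06 FPKM in control at day 5, did not differ by the test (effects -2.36 and -1.75, adjusted p = 0.517). Pou5f1, Nanog, T and Ddx3y were not called either (differences 0.49, 0.13, 0.57 and 0.04).

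**Figure D5:**
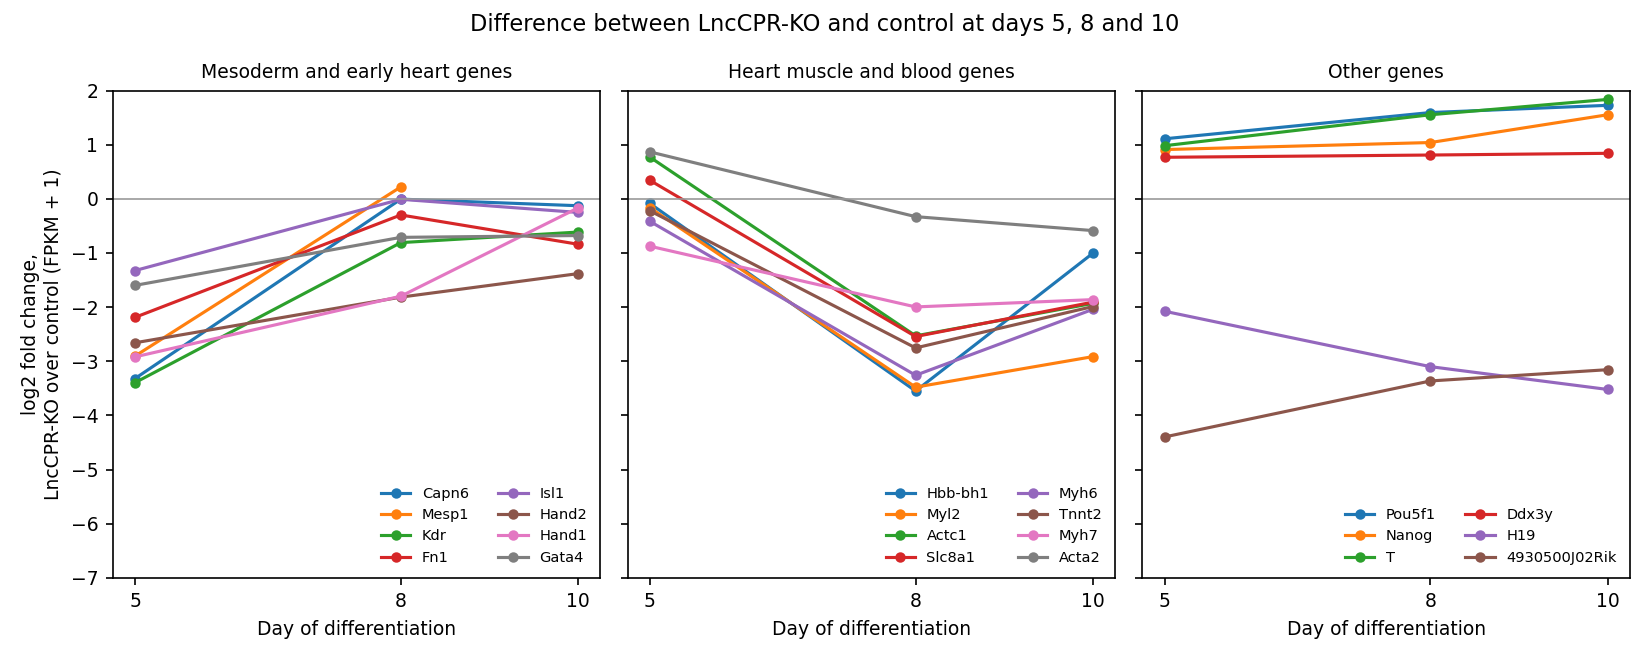
Log2 fold change of LncCPR-KO over control (FPKM + 1) at days 5, 8 and 10, each from its own table, for 22 genes. Points are fitted values and lines only connect them; Mesp1 has no day 10 point because it was under the filter in that comparison. Kdr, Mesp1 and Capn6 lie near -3 at day 5 and above -1 at day 8, while Myl2, Myh6 and Hbb-bh1 lie above -1 at day 5 and below -3 at day 8. The means of Myl2, Myh6 and Hbb-bh1 were under 1 FPKM in both groups at day 5, and those of Mesp1 at day 8.

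Day 8 and day 10 differed in few genes. The difference of the effects was called in 9 of 12821 genes (0.0702%), 3 higher and 6 lower at day 8, with 840 genes at an unadjusted p under 0.05. Actg2, smooth muscle gamma actin, was low at day 8 (1.04 ± 0.469 FPKM in LncCPR-KO and 0.498 ± 0.166 FPKM in control) and had 1.81 ± 0.331 FPKM in LncCPR-KO and 9.1 ± 2.61 FPKM in control at day 10 (difference 2.25, SE 0.30, adjusted p = 0.00899). Its small effect at day 8 was given by its level. The collagens Col6a3 and Col5a2, both on chromosome 1, also had a smaller deficit at day 8, with effects of -0.26 and -0.89, than at day 10, with -2.36 and -2.77 (adjusted p = 0.00186 and 0.0404). Col6a3 had 0.309 ± 0.156 FPKM in LncCPR-KO and 0.564 ± 0.0992 FPKM in control at day 8, and 0.582 ± 0.0381 FPKM in LncCPR-KO and 7.14 ± 0.682 FPKM in control at day 10, so it entered through control at day 10 and its small effect at day 8 was given by its level. Col5a2 had 1.27 ± 0.234 FPKM in LncCPR-KO and 3.25 ± 0.724 FPKM in control at day 8, and 2.1 ± 0.788 FPKM in LncCPR-KO and 20.1 ± 5.11 FPKM in control at day 10. Msx1 had 2.12 ± 0.522 FPKM in LncCPR-KO and 5.76 ± 0.68 FPKM in control at day 8, and 5.33 ± 0.204 FPKM in LncCPR-KO and 3.26 ± 0.265 FPKM in control at day 10 (difference -1.70, SE 0.22, adjusted p = 0.00866). Fgf8, a growth factor of streak and pharyngeal mesoderm, had 13.1 ± 1.17 FPKM in LncCPR-KO and 9.23 ± 1.26 FPKM in control at day 8, and 10.9 ± 1.48 FPKM in LncCPR-KO and 2.4 ± 0.111 FPKM in control at day 10 (difference -1.33, SE 0.20, adjusted p = 0.0226). Bmp5 was further below control at day 8 (-1.48) than at day 10 (-0.27; adjusted p = 0.0354). Apcdd1, an inhibitor of Wnt signals, the netrin receptor relative Prtg and the unstudied transcript 3632451O06Rik were the other 3 lower ones (differences -1.36, -1.10 and -1.15, adjusted p = 0.0469 for each).

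Of these 9, Actg2, Col6a3 and Msx1 kept their call whichever of the 12 libraries was left out, but Actg2 did not pass with a pseudocount of 0.1 or no filter (adjusted p = 0.0508 and 0.118), Col6a3 with a pseudocount of 0.1 (adjusted p = 0.129) or Msx1 with no filter (adjusted p = 0.0793). Col5a2 and Fgf8 did not pass in 10 and 8 of the 12 cases, and Apcdd1, Bmp5, Prtg and 3632451O06Rik in 11 of 12, so between 3 and 7 genes were called without 1 library. Of the 36 sarcomere genes tested 0 had a called difference by limma, 2 were higher and 18 lower at an unadjusted p under 0.05, and 1 was higher and 6 lower with library quality weights; their median effect was -1.90 at day 8 and -1.36 at day 10. Myh6 had 11.7 ± 2.14 FPKM in LncCPR-KO and 122 ± 28.6 FPKM in control at day 8, and 44.8 ± 14.1 FPKM in LncCPR-KO and 181 ± 14.6 FPKM in control at day 10, effects of -3.26 and -2.04 (adjusted p = 0.263). Hbb-bh1 had 15.4 ± 8.81 FPKM in LncCPR-KO and 32 ± 15.1 FPKM in control at day 10, where its effect was -1.01 against -3.55 at day 8 (adjusted p = 0.139), so a difference in this gene was not shown. Afp, 1.37 times the control level at day 8, had 80.0 ± 17.5 FPKM in LncCPR-KO and 287 ± 57.9 FPKM in control at day 10, but the difference of 2.38 did not pass (adjusted p = 0.0857).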

How the data were processed

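Total RNA of embryoid bodies was sequenced after rRNA removal with the ScriptSeq Complete Gold kit, per the labels' protocols. TopHat, Cufflinks and mm9 are named in the submitters' processing notes, with no versions; how multi-mapped reads were shared out and whether strand was used are not given in the sources used here. The values analysed are FPKM as deposited by the authors, 1 table for each of 6 days, with 37561 gene entries. The absolute depth is unknown: among genes seen in few libraries, at most 18.3% shared a common step with control 1, so whole reads could not be recovered.

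Groups came from the labels. The 6 day 8 libraries were compared on log2(FPKM + 1) over genes averaging at least 1 FPKM, with limma 3.58.1 in R 4.3.3 (lmFit, eBayes with trend, two-sided, Benjamini-Hochberg, threshold 0.05). Of the 12695 genes tested, 12213 reached the mean in both groups, 263 only in LncCPR-KO and 219 only in control. Differences of the knockout effect between days were tested as limma interactions over 12 libraries. The fit was tested on simulated data. Alternatives were another pseudocount, other filters, rescaled libraries, a replicate block, no variance trend, library quality weights, a fit over 36 libraries, leaving out chromosome 1, and leaving out each library. Chromosomes came from GENCODE vM21 (GRCm38), in which 32616 of the entries matched by identifier, and promoters from RefSeq (GRCm38.p6). The other software was pandas 2.3.3, numpy 2.4.6 and matplotlib 3.10.9, under Python 3.11.15.

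Named genes are the 12 highest and 12 lowest called log2 fold changes without overlap whose higher group averaged at least 5 FPKM, up to 6 called members of each list with 2 or more, a panel of markers, and the 6 highest and 6 lowest called differences between days. The 33 lists hold 877 genes, of which 863 matched; they and the panel were chosen with earlier results of these data known. Of the genes chosen by rule, 1 is not reported here. Myl2's promoter is not shown, because its start had no support in GENCODE.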

Additional observations from a re-analysis of the deposited data

Results flagged for a closer look

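The results given here are those in which the effect of the knockout at day 8 differed from that at day 5 or day 10 by the test of the difference itself (limma interaction, 3 libraries in each of 4 groups, Benjamini-Hochberg). No cause was tested.

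Against day 5, the difference in log2 fold change (day 8 minus day 5) was 3.31 for Capn6, 3.12 for Mesp1, 2.59 for Kdr, 2.46 for Lhfp, 2.33 for Dll1 and 2.13 for Nxf7, each below control at day 5. At day 8 Kdr was still below control (effect -0.81), while Mesp1, Lhfp, Dll1 and Nxf7 had effects of 0.22, 0.19, 0.06 and 0.43. Mesp1 was under 1 FPKM and Dll1 near 1 FPKM in both groups at day 8, so their small effects there were given by their level. Among heart muscle genes the difference was -3.31 for Myl2, -3.30 for Actc1, -3.06 for Tnni3 and -2.88 for Slc8a1, and among globins -3.46 for Hbb-bh1 and -3.28 for Hba-x, each below control at day 8. Actc1, Tnni3 and Slc8a1 were above control at day 5 (effects 0.77, 0.76 and 0.34). Myl2, Hbb-bh1 and Hba-x were under 1 FPKM in both groups at day 5, so their small effects there were given by their level. These 12 were chosen as the genes of largest difference, so their size is a description.

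Against day 10, the difference (day 8 minus day 10) was 2.25 for Actg2, 2.10 for Col6a3 and 1.87 for Col5a2. Col6a3 was under 1 FPKM and Actg2 near or under 1 FPKM in both groups at day 8. Their small effects there were thus given by their level. The difference was -1.70 for Msx1, -1.36 for Apcdd1, -1.33 for Fgf8, -1.22 for Bmp5, -1.15 for 3632451O06Rik and -1.10 for Prtg. Of these 9 genes, Actg2, Col6a3 and Msx1 were called whichever library was left out, though not with a pseudocount of 0.1 (Actg2, Col6a3) or no filter on low values (Actg2, Msx1), and the other 6 lost their call without 1 or more libraries.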

How the results depend on the processing

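None of the 112 calls chosen by rule at day 8 changed sign under the alternatives tried. Counts and medians without a test did: more genes were higher than lower with library quality weights, in the fit over 36 libraries, with the replicate block and without LncCPR-KO 3, and the median of 11 of the 33 lists was above 0 in some settings and below it in others. Against 163 genes higher and 254 lower at day 8 (417 in all), there were 19, 117 and 136 with no filter on low values, which tests 26809 genes, and 113, 135 and 248 over genes averaging at least 5 FPKM. Rescaled libraries gave 227, 513 and 740 genes. Library quality weights gave 1768, 826 and 2594, and a fit over 36 libraries 648, 563 and 1211. Leaving out 1 library gave between 51 and 406 higher, 139 and 259 lower, and 190 and 665 in all. The replicate block gave 296 higher, 294 lower and 590 in all. Deviations of libraries with the same number correlated at -0.045, 0.076 and 0.273, and those with different numbers at -0.33 to 0.27. So few correlations cannot show whether the numbers pair the libraries, and this is unknown. The cause of these changes was not tested, beyond the number of genes and libraries that enter each fit.

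For the difference from day 5, 80 higher, 70 lower and 150 in all were called over genes averaging at least 5 FPKM, 115 were lower with a pseudocount of 0.1, and 389, 464 and 853 with library quality weights. Leaving out 1 library gave 78 to 151 higher, 130 to 213 lower and 216 to 336 in all. For the difference from day 10, against 3 higher, 6 lower and 9 in all, there were 0, 2 and 2 with a pseudocount of 0.1, 1, 0 and 1 with no filter, 1 higher over genes averaging at least 5 FPKM, 15 higher and 22 in all on rescaled libraries, 3 lower with the replicate block, 5 higher without the variance trend, and 79, 97 and 176 with library quality weights. Leaving out 1 library gave 2 to 4 higher, 1 to 3 lower and 3 to 7 in all. The shift of chromosome 1, -0.29, was -0.33 with a pseudocount of 0.1, -0.074 with no filter, and -0.30 to -0.28 without 1 library.

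FPKM without counts leaves the precision of weakly expressed genes unknown, and 3 libraries a group from an unstated number of lines limit every comparison. Of the 112 calls chosen by rule at day 8, 67 were lost with no filter on low values.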
